A study of Mus musculus with 19 samples.

Results

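The genes described here are Fmr1, its paralogs Fxr1 and Fxr2, and 5 genes whose proteins bind the product of Fmr1: Cyfip1, Cyfip2, Nufip1, Nufip2 and Caprin1. They were taken by symbol from the RNA and ribosome profiling tables, where all 8 were found among 20436 genes, and all 8 passed the filter on low counts in both. The tissue was hippocampal slices of male wild-type mice. The mice were aged 28 to 42 days by the sample labels and 30 to 40 days by the methods of the study. Slices of 6 mice were pooled before lysis. Whether basal and DHPG samples with the same replicate number shared mice is not given for these replicates. Slices received 100 µM DHPG, an agonist of group 1 metabotropic glutamate receptors, or vehicle (basal) for 5 min, and every library was made from tissue treated afterwards with cycloheximide at 100 µg/ml to hold ribosomes in place. RNA-seq gave 4 basal libraries (replicates 1 to 4) and 5 DHPG libraries (replicates 1 to 5), and ribosome profiling, which reads the ribosome-protected fragments (RPFs) of mRNA, gave 5 basal and 5 DHPG libraries. Hippocampal excitatory neuron markers were present in all of them (7 of 7 genes tested in both assays).

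FMRP, the protein encoded by Fmr1, is an RNA-binding protein that associates with polyribosomes and represses the translation of many neuronal mRNAs, and its loss causes fragile X syndrome. In the hippocampus it is best known for its link to group 1 metabotropic glutamate receptors, because long-term depression induced by these receptors is exaggerated in mice without it. FXR1 and FXR2 share its RNA-binding domains. CYFIP1 and CYFIP2 are alternative subunits of the WAVE complex, which promotes branching of actin filaments, and CYFIP1 also binds the cap-binding protein eIF4E. NUFIP1 is a nuclear RNA-binding protein that acts in the assembly of small nucleolar ribonucleoproteins, NUFIP2 was found as an FMRP-binding protein, and CAPRIN1 is an RNA granule protein that binds both FMRP and the stress granule protein G3BP1.

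Because Fmr1, Fxr1 and Fxr2 are paralogs, as are Cyfip1 and Cyfip2, the coding sequences were first compared to see whether short reads could be split wrongly between them. RPFs of 26 to 34 nt had been kept, and no stretch of 28 nt in the coding sequence of a member occurred in a transcript of another member. The longest run shared by FMRP paralogs was 20 nt, between Fxr1 and Fxr2, and that of the CYFIP genes was 24 nt. The stretches that hold these runs are shown 5′ to 3′ on the coding strand, from GENCODE transcripts of mm10, with the identical bases in capitals.
Fmr1 (shared with Fxr1): atgcttctGAAACAGAATCTGAccacagag
Fxr1 (shared with Fmr1): acccctccGAAACAGAATCTGAgcgtaaag
Fmr1 (shared with Fxr2): tggtggaaGTGCGGGGCTCCAAtggcgctt
Fxr2 (shared with Fmr1): ccgtcgagGTGCGGGGCTCCAAcggggcct
Fxr1 (shared with Fxr2): ttagtGAAGGAGATGAAGTAGAGGTatatt
Fxr2 (shared with Fxr1): tcacaGAAGGAGATGAAGTAGAGGTctatt
Cyfip1 (shared with Cyfip2): ccgCAGTACAACATCTGTGAGCAGATGatc
Cyfip2 (shared with Cyfip1): cccCAGTACAACATCTGTGAGCAGATGgtt
Both runs between Fmr1 and a paralog were 14 nt long, and the lower-case bases next to each run are where the paralogs part. The Fmr1 stretch shared with Fxr1 lies in a single coding exon at chrX:68712252-68712281 and its partner in Fxr1 at chr3:34061849-34061878. The Cyfip1 stretch lies at chr7:55887850-55887879 on the plus strand and the Cyfip2 stretch at chr11:46270612-46270641 on the minus strand, each within one coding exon. The stretch shared by Fxr1 and Fxr2 spans an exon junction in both genes. Fragments of 26 nt or more can therefore be told apart between members wherever they were read without error. Outside the family, 89 of 1947 stretches of 28 nt in the Fxr1 coding sequence (4.57%) also occur in Gm17795 and 2 of 1758 in that of Fmr1 occur in Il27, so counts over these stretches are uncertain. Exons of Cyfip1 overlap those of Nipa2 on the opposite strand by 1316 nt and exons of Fxr1 overlap those of Dnajc19 by 178 nt, and whether strand was used in counting is not given in the sources used here.

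In mm10 the members lie on chromosome X (Fmr1, 68678541 to 68717963), chromosome 3 (Fxr1, 34019943 to 34070322), chromosome 7 (Cyfip1, 55841745 to 55932602), chromosome 14 (Nufip1, 76110891 to 76137379) and chromosome 2 (Caprin1, 103762941 to 103797649). The other 3, Cyfip2 (46193850 to 46312859), Fxr2 (69632990 to 69653297) and Nufip2 (77686155 to 77741921), lie on chromosome 11. Their transcripts differ widely in base composition. GC content was lowest in Fmr1 and Nufip2, both at 39.2%, lower than in all but 4.56% and 4.67% of genes. It was 42.0% in Caprin1, 44.6% in Nufip1, 45.2% in Fxr1, 46.1% in Cyfip1, 51.8% in Cyfip2 and 58.5% in Fxr2, against a median of 49.6% over all genes. Caprin1 has the longest 3′ UTR of the 8 at 3858 nt and Fxr1 the shortest at 255 nt.

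The first question was how much RNA and how many ribosomes each gene had in unstimulated slices. Levels are given in CPM (a gene's count relative to the size of its library, after edgeR's TMM scaling), divided by transcript length in kb for RNA and by the counted part of the coding sequence for RPFs. Basal RNA was dominated by Cyfip2, at 212 ± 13.01 CPM per kb (SD, n = 4), in the 98.0th percentile of 12250 genes. Fxr2 followed at 40.3 ± 3.51 and Cyfip1 at 33.5 ± 2.57 CPM per kb. Caprin1 (20.5 ± 9.85), Nufip2 (16.0 ± 4.76), Fxr1 (13.5 ± 7.14) and Fmr1 (7.75 ± 2.51) were lower and had large SDs, and Nufip1 was lowest at 4.04 ± 0.713 CPM per kb. The place of Nufip2 depends on the transcript: with that of the longest coding sequence its mean log2 level rose from 3.96 to 5.11, between Fxr2 (5.33) and Cyfip1 (5.07). Fmr1 RNA thus ranked 7th of the 8 and in the 44.6th percentile of all genes. Within replicates, the higher gene of each neighbouring pair in this order was higher in 4 of 4 basal libraries except for Caprin1 over Nufip2 and Nufip2 over Fxr1 (3 of 4 each), which did not differ beyond their spread. With 4 libraries the exact sign-flip permutation test (two-sided) cannot go below p = 0.125, and with 5 not below 0.0625, so no neighbours could pass a threshold of 0.05 in either assay.

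RPF levels followed another order. Cyfip2 (172 ± 9.08 CPM per kb, SD, n = 5) and Caprin1 (161 ± 7.87) were in the 91.7th and 91.2nd percentiles of 12495 genes and did not differ beyond their spread. Their mean log2 difference was 0.096 ± 0.13 (SD, n = 5), with Cyfip2 higher in 3 of 5 libraries. Fxr1 (50.5 ± 4.44 CPM per kb), Nufip2 (47.6 ± 4.53), Fxr2 (45.3 ± 5.54), Fmr1 (42.1 ± 2.63) and Cyfip1 (40.2 ± 2.22) lay close together, and no neighbours among these 5 were in the same order in all 5 libraries. Nufip1 was again lowest, at 17.8 ± 1.62 CPM per kb. Paralogs were compared over basal and DHPG libraries together, averaged within replicates. Fxr2 RNA was 5.53-fold that of Fmr1 per kb and higher in 9 of 9 libraries, whereas its RPFs were 1.08-fold those of Fmr1 and higher in 6 of 10. Fxr2 against Fxr1 gave 3.17-fold in RNA, higher in 9 of 9 libraries, and 0.90-fold in RPFs, higher in 1 of 10. Fxr1 against Fmr1 gave 1.74-fold in RNA, higher in 9 of 9 libraries, and 1.21-fold in RPFs, higher in 10 of 10. The FMRP paralogs therefore spanned a wide range in RNA and a narrow one in RPFs. The RNA differences varied between replicates. On the log2 scale they ran from 2.12 to 2.99 for Fxr2 over Fmr1, 1.19 to 2.54 for Fxr2 over Fxr1 and 0.46 to 1.23 for Fxr1 over Fmr1. Cyfip2 exceeded Cyfip1 in every library, by 6.35-fold in RNA and 4.26-fold in RPFs, and Nufip2 exceeded Nufip1 in every library, by 4.10-fold and 2.82-fold. In bulk tissue such as this, fewer cells that express a gene and less RNA per cell cannot be told apart.

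The RPF to RNA ratio, the log2 of RPF per kb over RNA per kb in the same basal replicate, separated the members into a high and a low group. Its median over 12023 genes was 0.85. Caprin1 was highest, with 2.55, 3.68, 3.78 and 2.41 in replicates 1 to 4 (mean 3.11 ± 0.73, SD, n = 4), in the 92.2nd percentile of all genes. Fmr1 had 2.14, 2.94, 2.99 and 1.91 (2.50 ± 0.55, 85.7th percentile), so that its RPF level stood well above what its rank in RNA would give. Nufip1 (2.14 ± 0.18), Fxr1 (2.08 ± 0.83) and Nufip2 (1.64 ± 0.54) were also above the median of all genes in each replicate. Cyfip1 (0.26 ± 0.17), Fxr2 (0.15 ± 0.21) and Cyfip2 (−0.31 ± 0.17) were below it in each replicate, Cyfip2 in the 19.8th percentile. The step between the groups, from Nufip2 to Cyfip1, was 1.38 ± 0.42 on the log2 scale and had the same sign in 4 of 4 replicates. The SDs of Caprin1, Fxr1, Fmr1 and Nufip2 were larger than the median SD of 0.30 over all genes. With lengths left out Fxr1 was highest at 1.77 (96.6th percentile), ahead of Caprin1 at 1.53 (94.6th). On that scale the ratio of Fmr1 was 1.19 (90.6th percentile) and that of Cyfip2 −1.15 (17.5th percentile). The ratio of Nufip2 rests on its long annotated 3′ UTR (3006 nt), and with the transcript that has the longest coding sequence it was 0.45. That is below the median of 0.85 over all genes, which was not recomputed with such transcripts. The step between the groups depends on the transcript used, as Cyfip1 had 0.26 with either choice. Transcript GC content ran from 39.2% to 45.2% in the high group and from 46.1% to 58.5% in the low group. The part of base composition in the ratio was not tested.

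**Figure D1:**
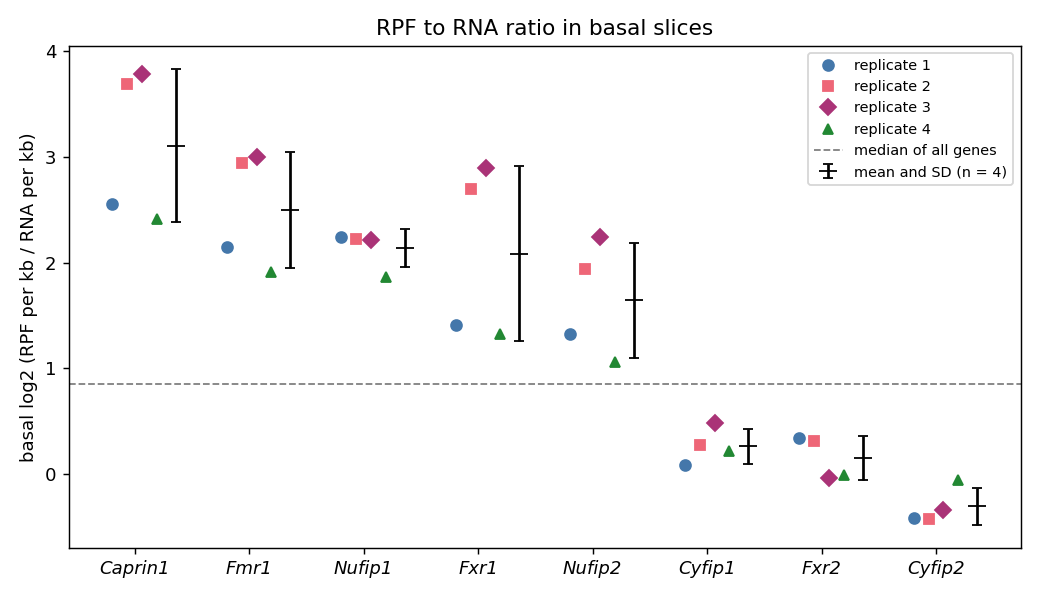
Log2 ratio of RPF per kb to RNA per kb in basal slices (y axis) for each gene (x axis), with 1 symbol per replicate, the mean and SD (n = 4) in black and the median of all genes (0.85) as a dashed line. Caprin1, Fmr1, Nufip1, Fxr1 and Nufip2 lie above the line in each replicate and Cyfip1, Fxr2 and Cyfip2 below it, and replicates 2 and 3 lie above 1 and 4 for Caprin1, Fmr1, Fxr1 and Nufip2.

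The members with large SDs had RNA levels that followed the replicate number in basal and DHPG slices alike, as the plot of RNA by replicate shows. Caprin1 RNA had 177, 80.8, 67.6 and 181 CPM in basal replicates 1 to 4, and 172, 89.9, 67.9, 183 and 156 CPM in DHPG replicates 1 to 5. Under either treatment it was high in replicates 1 and 4 and low in 2 and 3, with no overlap, and replicate 5, with DHPG only, was among the high ones. Fxr1 RNA had 49.0, 21.2, 15.0 and 47.3 CPM in basal and 38.8, 22.7, 16.5, 45.5 and 33.3 CPM in DHPG replicates. Fmr1 RNA had 41.3, 26.4, 23.2 and 45.7 CPM in basal and 27.0, 25.8, 18.3, 42.2 and 33.97 CPM in DHPG replicates. In both, replicates 2 and 3 were again below 1 and 4, but in Fmr1 the DHPG library of replicate 1 only just exceeded the basal library of replicate 2. Nufip2 RNA had 98.4, 72.9, 52.9 and 107 CPM in basal and 87.8, 67.6, 59.7, 111 and 99.4 CPM in DHPG replicates, in the same order.

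The other 4 members moved less between replicates. Nufip1 RNA had 16.8, 13.8, 13.9 and 19.8 CPM in basal and 17.2, 10.7, 11.3, 17.7 and 19.3 CPM in DHPG replicates, low in 2 and 3. Fxr2 RNA had 126, 104, 121 and 125 CPM in basal and 123, 106, 99.4, 130 and 102 CPM in DHPG replicates. Cyfip1 RNA had 235, 203, 201 and 224 CPM in basal and 219, 180, 193, 219 and 218 CPM in DHPG replicates. The libraries of Fxr2 and Cyfip1 thus lay within narrow bands. Cyfip2 RNA, the steadiest, had 1446, 1484, 1437 and 1287 CPM in basal and 1476, 1305, 1463, 1466 and 1237 CPM in DHPG replicates, with no order shared by the treatments.

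**Figure D2:**
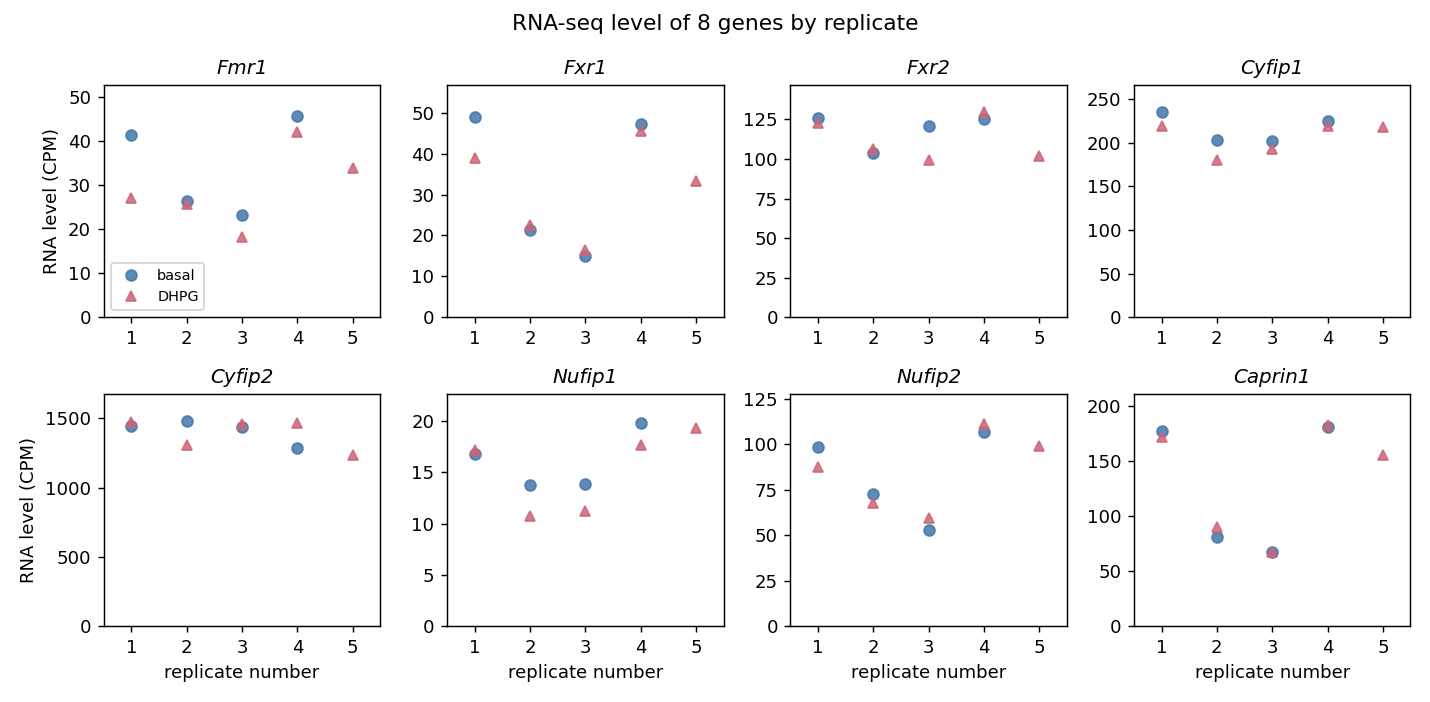
RNA level in CPM (y axis, from 0) of each gene by replicate number (x axis), with basal libraries as circles and DHPG libraries as triangles. Caprin1, Fxr1, Fmr1 and Nufip2 are high in replicates 1 and 4 and low in 2 and 3 under both treatments. The exception is Fmr1 in DHPG replicate 1 (27.0 CPM), only just above DHPG replicate 2 (25.8 CPM). Cyfip2 stays between 1237 and 1484 CPM.

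Differences between replicates 1 to 4 were tested in RNA by edgeR's quasi-likelihood F test with treatment in the model and Benjamini-Hochberg adjustment over 12891 genes, of which 36.4% passed an adjusted p of 0.01. Of the 8 members, 5 passed: Caprin1 (adjusted p = 8.56e-11), Fxr1 (4.24e-09), Nufip2 (3.85e-07), Fmr1 (4.47e-06) and Nufip1 (0.00708). Cyfip1 (0.0570), Fxr2 (0.0650) and Cyfip2 (0.747) did not. The range of the replicate means was 1.54 on the log2 scale for Fxr1 (2.91-fold, larger than in 99.4% of genes) and 1.42 for Caprin1 (2.67-fold, larger than in 98.7%). It was 1.08 for Fmr1 (2.12-fold) and 0.95 for Nufip2 (1.93-fold), against a median of 0.48 over all genes. The range of Cyfip2, 0.088, was smaller than in all but 1.27% of genes. Each of the 4 libraries of replicates 1 and 4 exceeded each of the 4 of replicates 2 and 3 for 7 of 8 members in RNA, all but Cyfip2, and for 18.9% of all genes. This split of the replicates was chosen after the values were seen and is given as a description with no test.

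Ribosome footprints of the same genes, as measured, showed little of this pattern. Caprin1 RPFs had 349, 349, 312, 321 and 332 CPM in basal replicates 1 to 5 and 347, 324, 292, 320 and 321 CPM in DHPG replicates. Fxr1 RPFs had 105, 112, 91.2, 95.6 and 93.9 CPM in basal and 99.0, 95.04, 87.8, 93.9 and 98.9 CPM in DHPG replicates. Both genes overlapped between replicates 1 and 4 and replicates 2 and 3. Fmr1 RPFs had 74.4, 82.8, 75.6, 70.0 and 73.4 CPM in basal and 70.5, 80.5, 74.4, 62.9 and 64.8 CPM in DHPG replicates, with replicate 2 the highest under both treatments. Nufip2 RPFs had 96.9, 110, 98.3, 87.1 and 88.5 CPM in basal and 97.2, 105, 101, 90.9 and 86.0 CPM in DHPG replicates, also highest in replicate 2. In these 2 genes replicates 1 and 4 lay on average below 2 and 3, opposite to the RNA.

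The remaining RPF levels were similarly close. Fxr2 RPFs had 106, 86.0, 78.1, 82.9 and 91.2 CPM in basal and 98.5, 80.1, 71.3, 84.7 and 94.3 CPM in DHPG replicates, highest in replicate 1 and lowest in replicate 3. Cyfip1 RPFs had 143, 141, 162, 150 and 149 CPM in basal and 141, 129, 159, 162 and 160 CPM in DHPG replicates. Cyfip2 RPFs had 604, 615, 631, 690 and 648 CPM in basal and 621, 605, 618, 693 and 631 CPM in DHPG replicates. Replicate 2 was lowest for Cyfip1 under both treatments and replicate 4 highest for Cyfip2. Nufip1 RPFs had 28.4, 23.0, 23.0, 25.6 and 24.1 CPM in basal and 23.5, 18.5, 22.9, 23.6 and 23.0 CPM in DHPG replicates.

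In RPFs 7 of 8 members passed the test of replicates 1 to 5 at an adjusted p of 0.05 (edgeR), where 48.3% of 13208 genes passed; Nufip1 (adjusted p = 0.0714) did not. Their ranges were small. They ran from 0.18 (Cyfip2) to 0.46 (Fxr2) on the log2 scale, against a median of 0.33 over all genes. The ranges of Fxr1 and Caprin1, 1.54 and 1.42 in RNA, were both 0.20 in RPFs, in the 20.3rd and 20.1st percentiles. All 4 libraries of replicates 1 and 4 exceeded those of replicates 2 and 3 for 1 of 8 members (Nufip1) and for 11.4% of all genes.

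**Figure D3:**
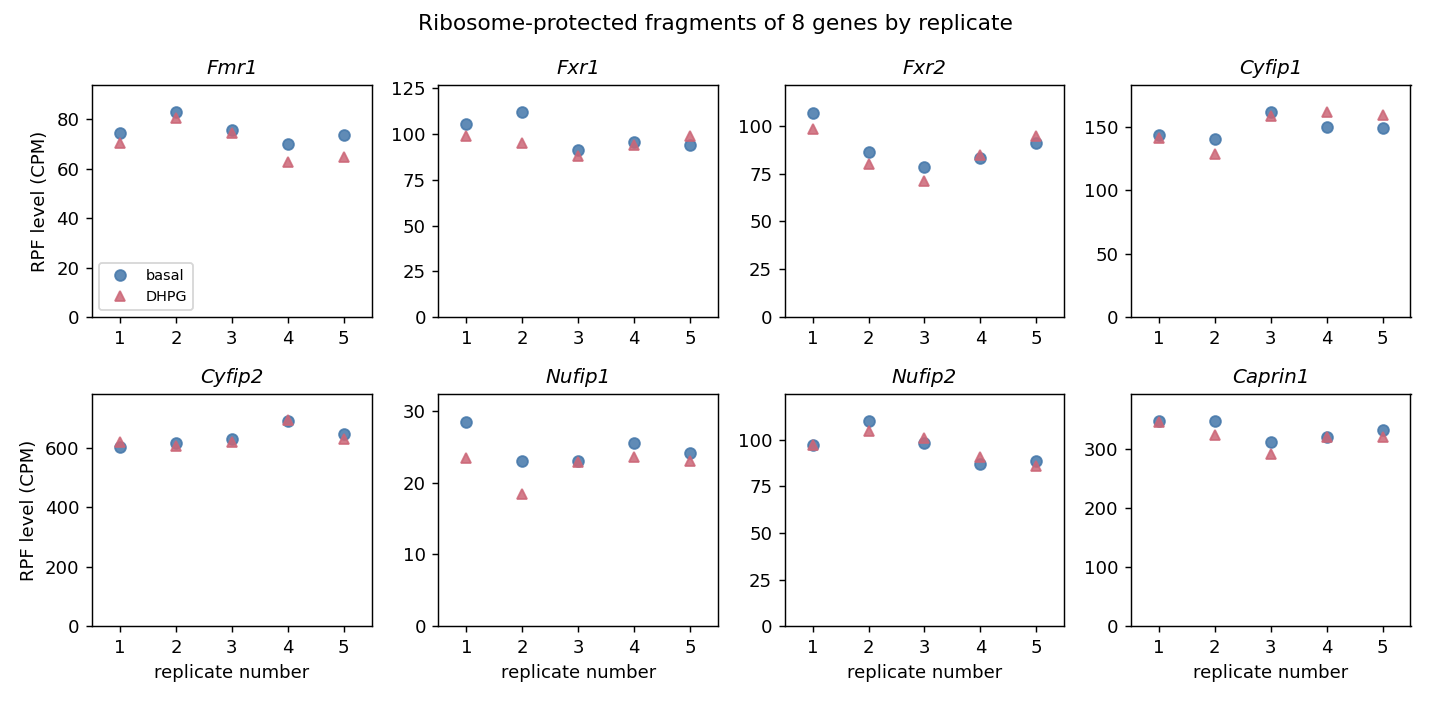
RPF level in CPM (y axis, from 0) of each gene by replicate number (x axis), with basal libraries as circles and DHPG libraries as triangles. Caprin1 lies between 292 and 349 CPM and Fxr1 between 87.8 and 112 CPM, without the step between replicates 1 and 4 and replicates 2 and 3 that their RNA has.

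Base composition, RPF depth and some lists of cell markers moved with this pattern, while RNA depth and other lists overlapped between the sets of replicates. Across 12397 genes, the gap of replicates 1 and 4 over 2 and 3 in RNA had a Spearman correlation of −0.645 with the GC content of the transcript, a description over genes of the same 8 libraries. Its median was 0.40 for transcripts under 40% GC, where Fmr1 (gap 0.72) and Nufip2 (0.68) lie. It was 0.36 from 40% to 45% (Caprin1 1.22) and 0.15 from 45% to 50% (Fxr1 1.26). In RPFs the correlation had the opposite sign, 0.456 over 12723 genes. After removal of the dependence on GC content and transcript length within each library, the RNA range of Fmr1 was 0.41 and that of Nufip2 0.28, against a median of 0.38 over all genes, while those of Fxr1 (1.20) and Caprin1 (0.99) were still larger than in 98.6% and 96.2% of genes. The range of Fxr2, the GC-richest member, was 0.65 after this step against 0.28 before it. RNA libraries of replicates 1 and 4 held 6100633 to 7793244 counts and those of 2 and 3 4870813 to 6617985, while in RPFs replicates 1 and 4 held 5692064 to 10515603 and replicates 2 and 3 15216709 to 22092434. Excitatory neuron markers summed to 3500 to 4507 CPM in the RNA of replicates 1 and 4 and to 5240 to 5907 CPM in that of 2 and 3, but in RPFs to 4670 to 5593 and 4857 to 5355 CPM. Oligodendrocyte markers summed to 2462 to 4600 CPM in the RNA of replicates 1 and 4 and 5168 to 6034 CPM in 2 and 3, and in RPFs to 3988 to 8324 and 8185 to 9449 CPM. Microglia markers summed to 391 to 511 CPM in the RNA of replicates 1 and 4 and to 556 to 614 CPM in that of 2 and 3. In RPFs the microglia sums were 298 to 468 and 398 to 437 CPM. Other lists overlapped in RNA. Inhibitory neuron markers summed to 648 to 675 CPM in replicates 1 and 4 and to 573 to 674 CPM in 2 and 3. Astrocyte markers summed to 3884 to 4544 and 4242 to 4592 CPM, and endothelial markers to 38.9 to 47.1 and 36.3 to 60.4 CPM. The parts of depth and of cell makeup in the pattern were not tested.

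**Figure D4:**
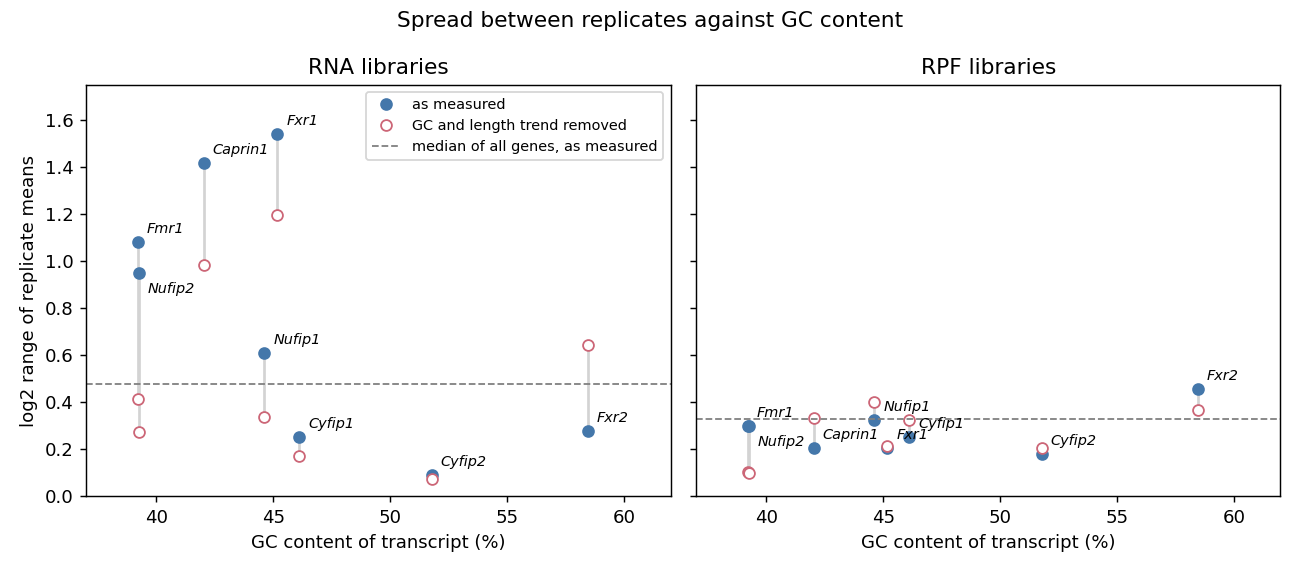
Log2 range of the replicate means (y axis) of each gene against the GC content of its transcript in % (x axis), for RNA (left, replicates 1 to 4) and RPFs (right, replicates 1 to 5). Filled points are as measured, open points after the dependence on GC content and length was removed, and the dashed line is the median of all genes as measured. In RNA, Fmr1 and Nufip2 come down to 0.41 and 0.28 while Fxr1 and Caprin1 remain at 1.20 and 0.99.

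DHPG was then compared with basal slices, with replicate number as a block because replicates were processed as batches. None of the 8 members passed the threshold in any readout. In RNA 0 of 8 passed an adjusted p of 0.01 (edgeR, over all genes), against 0.00773% of 12935 genes tested (1 gene). In RPFs 0 of 8 passed 0.05, against 0.22% of 13208 genes (29 genes). In translational efficiency (TE, the change in RPF less that in RNA) 0 of 8 passed 0.05, against 0% of 12691 genes. At an unadjusted p under 0.05 stood 1 of 8 members in RNA (8.02% of all genes), 2 of 8 in RPFs (10.8%) and 0 of 8 in TE (6.69%, 849 genes). The members were lower after DHPG more often than higher: 6 of 8 in RNA (median log2 fold change −0.071, 0.0068 over all genes) and 7 of 8 in RPFs (median −0.056, 0.0031 over all genes). Of all genes tested, 52.1% were higher in RNA and 51.4% in RPFs. None of the members' shifts passed the test, and members share libraries, so their signs are not independent.

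Fmr1 had the largest RNA difference of the 8. On the log2 scale DHPG less basal was −0.29 (standard error 0.10, 95% interval −0.49 to −0.076, edgeR adjusted p = 0.545), with the DHPG library below its partner in 4 of 4 pairs. The pairs themselves differed widely, from −0.61 in replicate 1 to −0.033 in replicate 2, and without replicate 1 the RNA difference was −0.17 and the TE difference 0.059. In RPFs the Fmr1 difference was −0.088 (standard error 0.040, interval −0.17 to −0.0069, adjusted p = 0.418), with DHPG below basal in 5 of 5 pairs. Its TE difference was 0.19 (interval −0.016 to 0.40, adjusted p = 0.749), positive in 2 of 4 pairs. A fall of Fmr1 RPFs by more than 0.17 on the log2 scale lies outside the interval.

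Among its paralogs the log2 fold changes of RPFs were −0.070 for Fxr1 (interval −0.15 to 0.0094) and −0.056 for Fxr2 (interval −0.13 to 0.023). Without replicate 2 that of Fxr1 was −0.020 and without replicate 5 −0.11, and without replicate 3 that of Fxr2 was −0.032 and without replicate 5 −0.084. In RNA they were −0.084 for Fxr1 and −0.058 for Fxr2, each lower in 2 of 4 pairs. In RPFs of the CYFIP genes, Cyfip1 had 0.0037 (interval −0.068 to 0.075) and Cyfip2 −0.011 (interval −0.068 to 0.047). A rise of Cyfip2 RPFs by more than 0.047 or a fall by more than 0.068 on the log2 scale was outside its interval. In RNA Cyfip1 had −0.091 (interval −0.23 to 0.048), with DHPG below basal in 4 of 4 pairs, and Cyfip2 had 0.015.

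Nufip1 had the largest RPF difference, −0.14 (standard error 0.061, interval −0.26 to −0.016, edgeR adjusted p = 0.395), with DHPG below basal in 5 of 5 pairs, and −0.17 in RNA. Without replicate 2 its RPF difference was −0.090. Nufip2 had −0.0048 in RPFs (interval −0.079 to 0.070) and −0.014 in RNA. Caprin1 had −0.057 in RPFs (standard error 0.030, interval −0.12 to 0.0034, edgeR adjusted p = 0.498), again with DHPG below basal in 5 of 5 pairs, and 0.026 in RNA. With ComBat by replicate number followed by DESeq2, the order of steps in the study's methods, Caprin1 RPFs passed (−0.062, adjusted p = 0.0414). In that setting 429 genes were called against 29. ComBat was run there on log2 CPM, and DESeq2 then had no term for replicate. DESeq2 with the replicate block called 28 genes in RPFs, and its adjusted p for Caprin1 was 0.415.

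**Figure D5:**
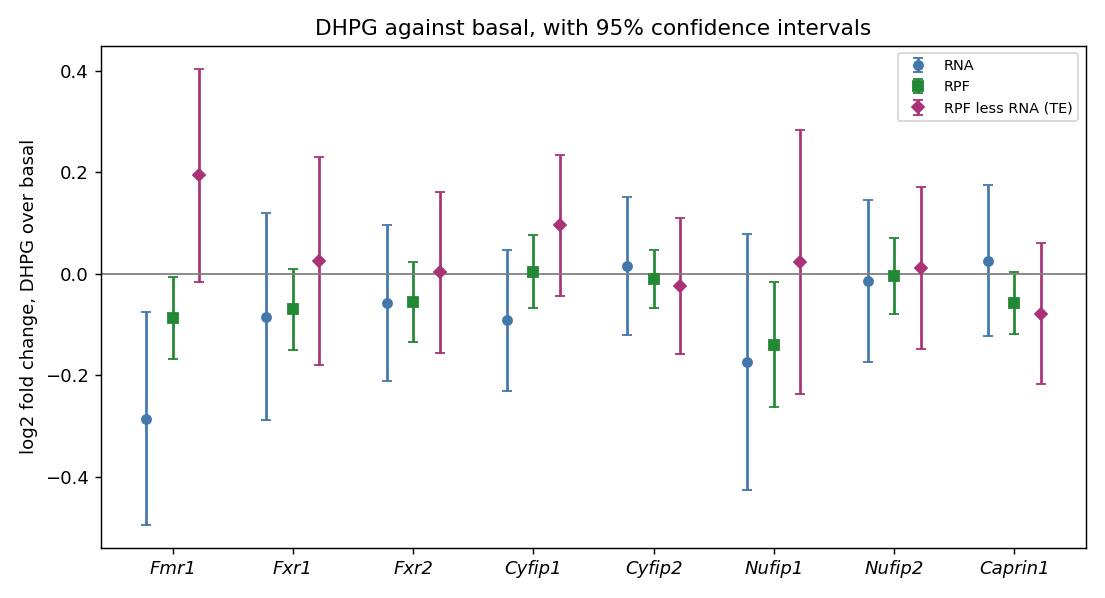
Log2 fold change of DHPG over basal (y axis) for each gene (x axis) in RNA, RPF and TE, with 95% confidence intervals from edgeR. No member passed its threshold; Fmr1 in RNA (−0.29) and Nufip1 in RPFs (−0.14) lie farthest below 0 in their readouts.

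The proteins around this group were read as lists. Of all genes tested, 52.1% were higher in RNA, 51.4% in RPFs and 49.5% in TE. The all-gene shares at an unadjusted p under 0.05 were 8.02%, 10.8% and 6.69%. Of 8 WAVE complex partners of the CYFIP proteins, 0 passed in RNA, RPFs or TE, with 4 higher and 4 lower in RNA and in RPFs, and at an unadjusted p under 0.05 stood 0 in RNA and 1 in RPFs. Rac1, the GTPase that activates the complex, had an RPF log2 fold change of 0.069 (edgeR adjusted p = 0.409), positive in 5 of 5 pairs, and Nckap1, the subunit that pairs with CYFIP, one of −0.054, negative in 5 of 5. In RNA the log2 fold change was 0.092 for Abi2 and 0.19 for Wasf2, each positive in 4 of 4 pairs. Nckap1 RNA also differed between replicates, with a range of 0.88 on the log2 scale.

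Of 12 partners of CAPRIN1 and stress granule proteins, 0 passed in any readout, and 10 of 12 were lower in RPFs (median −0.040) while 6 of 12 were lower in RNA (median 0.027). At an unadjusted p under 0.05 stood 2 in RNA and 5 in RPFs, against 8.02% and 10.8% of all genes. Pabpc1, the cytoplasmic poly(A)-binding protein, had 0.21 in RNA (positive in 4 of 4 pairs) and −0.10 in RPFs (negative in 4 of 5), with a TE difference of −0.32 (edgeR adjusted p = 0.350). G3bp2 had −0.18 in RNA. In the test of replicate differences in RNA, which 36.4% of all genes passed, 9 of the 12 passed. The same test was passed by 5 of 8 WAVE complex partners and 5 of 12 other FMRP-associated proteins. It was also passed by 3 of 7 kinase, phosphatase and ubiquitin ligase genes and 6 of 10 textbook FMRP targets.

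Among 12 other FMRP-associated proteins 0 passed, 10 of 12 being lower in RPFs (median −0.058) and 5 of 12 in RNA (median 0.027), with 0 in RNA and 1 in RPFs at an unadjusted p under 0.05. The double-stranded RNA-binding protein Stau2 had a log2 fold change of −0.090 in RPFs and Ranbp9 one of −0.068. In RNA Ago2, the effector of microRNA silencing, had 0.13 and Pura 0.13. Of 7 kinase, phosphatase and ubiquitin ligase genes acting on FMRP 0 passed, nor did any reach an unadjusted p of 0.05 in RNA or RPFs, with RPF differences of −0.035 for Csnk2a1 and −0.051 for Csnk2a2 and RNA differences of 0.088 for Fzr1 and 0.092 for Csnk2a2.

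Of 11 textbook FMRP target RNAs, all tested in RNA and 10 in RPFs, 0 passed, and 3 in RNA and 1 in RPFs had an unadjusted p under 0.05. In RNA 8 of 11 were higher (median 0.094), among them Dlgap4 (0.22) and Camk2a (0.18), each higher in 4 of 4 pairs. In RPFs App had 0.067 and Camk2a 0.053, each higher in 4 of 5 pairs, and 6 of 10 were higher (median 0.014). TE was lower for 9 of 10 (median −0.065), a count in which both assays' differences enter. Thalamus, a tissue next to the hippocampus, had marker genes that were higher after DHPG, with 1 of 5 tested past the threshold in RNA and 5 of 6 in RPFs. Their sums ran from 93.4 to 125 CPM in basal and 114 to 157 CPM in DHPG RNA, and from 135 to 168 and 140 to 220 CPM in RPFs. In replicate 5 the RPF sum was lower after DHPG (162 CPM in basal and 140 in DHPG). Of the other lists, 1 of 5 inhibitory neuron and 1 of 6 oligodendrocyte markers were higher past the threshold in RPFs, and 0 of the excitatory neuron, astrocyte, microglia and endothelial markers passed in either assay. Excitatory neuron markers were higher in RNA for 7 of 7 and lower in TE for 7 of 7 (median −0.12), oligodendrocyte markers higher in RNA for 6 of 6 and lower in TE for 6 of 6 (median −0.055), and microglia markers higher in RPFs for 6 of 6 (median 0.096). The choroid plexus genes Ttr, Folr1 and Clic6 did not pass the filter on low counts, and the 1 tested gene of that list did not pass. The part of these cells and tissues in the values of the FMRP targets and the members was not tested.

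Genes that followed Fmr1 most closely across libraries were ranked by Pearson correlation of log2 CPM, among genes of at least 10 CPM. Over 9 RNA libraries these were Etnk1 (0.986), Gabpa (0.985), Ddx3y (0.979), Larp4b (0.971) and Macrod2 (0.970), of 9803 genes. Over 10 RPF libraries they were Bdp1 (0.952), M6pr (0.934), Mgea5 (0.933), Pvalb (0.933) and Rlf (0.932), of 9421 genes. No gene was on both lists. Of the members, Nufip2 was most like Fmr1 in both assays (0.903, rank 349 in RNA, and 0.817, rank 310 in RPFs). Fxr1 (0.898) and Caprin1 (0.867) were close to it in RNA but not in RPFs (0.287 and 0.193). In RNA Cyfip2 had −0.317, in the 42.7th percentile of genes, and in RPFs Cyfip2 (−0.658), Cyfip1 (−0.636), Nufip1 (−0.306) and Fxr2 (−0.233) were all negative. All these points share replicates, depth and the base composition trend given above.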

How the data were processed

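The 19 libraries of hippocampal slices comprised 9 of RNA-seq and 10 of ribosome profiling. The authors trimmed adapters, discarded rRNA and tRNA, mapped reads to mm10 and collapsed duplicates by molecular identifier. RSEM's expected counts were deposited by them as whole numbers, not normalized. RNA was counted on transcripts and RPFs on coding sequence without 30 nt at each end. A further 12 columns of the tables carry no sample of this series and were left out. The members and gene lists were chosen with earlier results of these data known.

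The software was DESeq2 1.42.0, sva 3.50.0, edgeR 4.0.16 and limma 3.58.1 under R 4.3.3. Counts were tested by edgeR's quasi-likelihood test (TMM, filterByExpr, replicate block, Benjamini-Hochberg over all genes; adjusted p under 0.01 for RNA, 0.05 for RPF and TE). TE was the interaction of assay and treatment over 19 libraries. Log2 CPM used a prior count of 2. DHPG replicate 5 has RNA but no basal RNA partner, so it gave no DHPG less basal difference to the blocked RNA comparison. It entered the scaling, the filter and the estimate of spread, and without it the Fmr1 RNA difference was −0.293 instead of −0.285. The numbers pair the samples: the methods treat replicates as batches, and same-numbered libraries deviated together (correlations 0.308 to 0.741 in RNA and 0.259 to 0.523 in RPF), although RNA replicate 2 correlated more with another number (0.467) than with its own (0.308). With the replicate block, p-values for DHPG are set against the spread left once the level of each replicate number is taken out. This spread can include differences between mice if basal and DHPG libraries came from separate pools. P-values for replicate differences are set against the same kind of remaining spread.

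Named genes were the 8 members, every gene of a list past the threshold or else the 2 with the smallest p in RNA and in RPF, and the 5 most like Fmr1 in each assay; marker lists were given as summaries, and 1 gene that the rule names is not reported here. Annotation is GENCODE M21, which matched 96.0% of genes by symbol. Alternatives were DESeq2's size factors, no low-count filter, no block, DESeq2, ComBat then DESeq2, other thresholds, limma for TE, other lengths, each replicate left out and, added after seeing the data, removal of GC and length trends (loess, span 0.5). On simulated data with 200 genes changed by 0.5 on the log2 scale, of which those that passed the filter count, 65.3% were called in RNA (12841 genes, 3 false), 86.8% in RPF (13136 genes, 8 false) and 63.8% in TE (12587 genes, 3 false). The DHPG estimates of all members were smaller than 0.5 in size, and recovery of such smaller changes was not simulated. The test of replicate differences called 88.4% of genes changed by 1 in 1 replicate in RNA (12734 genes) and 83.9% in RPF (13101 genes).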

Additional observations from a re-analysis of the deposited data

Results flagged for a closer look

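In the DHPG RPF libraries, Nufip1 had 18.5 CPM in replicate 2 while the other 4 lay between 22.9 and 23.6 CPM, a gap large for the group's range. Its basal log2 RPF to RNA ratio was 1.87 in replicate 4, with the other 3 between 2.22 and 2.25. These 2 were found among 40 groups of libraries screened, where chance alone flags about 1 group in 20. Nufip1 is the member with the fewest counts.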

How the results depend on the processing

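Where an adjusted p was given, no member passed the threshold for DHPG in RNA or TE under any alternative, and in RPFs only Caprin1 did, under ComBat followed by DESeq2 (1 member called). DESeq2 gave no adjusted p for Fmr1, Fxr1 and Nufip1 in RNA and Nufip1 in RPF after ComBat, nor, with the block, for the RPFs of the members other than Cyfip2 and Caprin1. The RNA call count of 1 became 7 without a filter, 0 without the replicate block, 0 with DESeq2 and the block, 203 with ComBat and DESeq2, and 0 to 22 with a replicate left out. The RPF count of 29 became 96 without a filter, 0 without the block, 429 with ComBat and DESeq2, 8 at an adjusted p of 0.01, and 3 to 71 with a replicate left out (3 without replicate 2). The TE count of 0 became 0 to 8, 8 without replicate 2.

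Small differences changed sign. Without the replicate block the RNA values were −0.025 for Cyfip2 and 0.041 for Nufip2, and the TE values −0.0012 for Fxr1, 0.011 for Cyfip2, −0.085 for Nufip1 and −0.051 for Nufip2. With limma TE was −0.063 for Fxr1 and −0.021 for Fxr2. With GC and length trends removed RNA was −0.041 for Cyfip2 and 0.027 for Nufip2, and RPF was 0.0083 for Nufip2. With replicates left out in turn, RNA ran from −0.13 to 0.028 for Fxr1, −0.099 to 0.015 for Fxr2, −0.045 to 0.081 for Cyfip2, −0.068 to 0.034 for Nufip2 and −0.0099 to 0.048 for Caprin1. RPF ran from −0.021 to 0.039 for Cyfip1 and −0.019 to 0.015 for Nufip2. TE ran from −0.093 to 0.11 for Fxr1, −0.054 to 0.038 for Fxr2, −0.090 to 0.033 for Cyfip2, −0.066 to 0.13 for Nufip1 and −0.049 to 0.043 for Nufip2. Fmr1 was lower under each alternative, from −0.37 to −0.17 in RNA and −0.11 to −0.065 in RPF. So was Nufip1, from −0.27 to −0.073 in RNA and −0.19 to −0.090 in RPF. Cyfip1 in RNA and Fxr1, Fxr2, Cyfip2 and Caprin1 in RPF were also lower under each. The causes were not tested.

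With no division by length, the highest member exceeded the lowest by 6.44 instead of 5.70 (log2) in RNA and by 4.68 instead of 3.27 in RPF. The spread of the basal ratio, 3.41, stayed between 2.92 and 3.73, and the replicate tests called the same numbers of members with DESeq2's size factors. Low RNA counts limit Nufip1 most (52 to 140 counts per library).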
